A study of Mus musculus with 2 samples.

Results

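The genes that write, maintain and remove DNA methylation were examined for reads of Msl1 and Nsl1, the defining subunits of the MSL and NSL complexes, in mouse embryonic stem cells (mESCs). The genes were taken as a list by their function and not by a read count: Dnmt1, Uhrf1, Dnmt3a, Dnmt3b, Dnmt3l, Tet1, Tet2, Tet3, Tdg and Mbd3, which are 10 of the 22176 protein-coding genes with a transcription start site (TSS) on the chromosomes used. Both ChIP-seq libraries came from wild type mESCs labelled E14, passage 26, on a 129P2/OlaHsd background. The Msl1 library was made with antibody 3208 and the Nsl1 library with antibody 3130, and there was 1 library per antibody. They also differed in library kit and read length, so antibody and library cannot be told apart, and no difference between them has a replicate check. The libraries held 19483142 distinct nuclear reads for Msl1 and 24883001 for Nsl1. All intervals below are exact 95% intervals and cover counting error only.

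In mammals, methyl groups are placed on the cytosine of CpG dinucleotides by Dnmt3a and Dnmt3b, which set new patterns with the help of the catalytically inactive Dnmt3l, and the patterns are copied at replication by Dnmt1, which Uhrf1 brings to hemimethylated DNA. The Tet enzymes oxidise 5-methylcytosine, and Tdg, a thymine DNA glycosylase, cuts out its most oxidised forms so that base excision repair can restore cytosine. Mbd3 resembles the methyl-CpG binding proteins but is best known as a subunit of the NuRD deacetylase complex. MSL and NSL share Mof, the acetyltransferase of histone H4 lysine 16.

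Reads were counted at every TSS of a GENCODE annotation of mm9. The number of reads within 500 bases of a TSS was divided by the local level, the reads per base from 5 to 50 kb on both sides. This ratio compares a promoter with its own surroundings, and a value of 1 means no excess. The 10 genes have 38 TSSs, numbered from 5′ to 3′ in each gene, and the main TSS of a gene is the one where most of its protein-coding transcripts start. Upstream sequences are given for Dnmt1, Tdg, Dnmt3b and Tet1 as examples of different read patterns: mostly Nsl1 reads at Dnmt1, reads of both libraries at Tdg, mostly Msl1 reads at Dnmt3b, and different read numbers at a RefSeq and a GENCODE start of Tet1. Each is 200 bases of mm9, 5′ to 3′ in the direction of the gene, with every CpG in capitals. It ends just before the most upstream annotated start of the TSS, GENCODE or RefSeq, which for Dnmt1 and Dnmt3b lies upstream of the position given for the TSS.
Dnmt1, chr9:20757424-20757623, minus strand: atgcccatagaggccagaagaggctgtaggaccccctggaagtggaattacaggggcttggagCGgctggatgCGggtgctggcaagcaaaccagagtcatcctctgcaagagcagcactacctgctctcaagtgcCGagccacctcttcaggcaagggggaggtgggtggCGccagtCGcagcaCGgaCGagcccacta
Tdg, chr10:82092373-82092572, plus strand: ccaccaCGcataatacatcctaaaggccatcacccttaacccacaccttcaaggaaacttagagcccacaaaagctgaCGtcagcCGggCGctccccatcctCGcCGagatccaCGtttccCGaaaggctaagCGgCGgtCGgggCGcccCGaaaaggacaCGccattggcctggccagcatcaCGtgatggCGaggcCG
Dnmt3b, chr2:153474985-153475184, plus strand: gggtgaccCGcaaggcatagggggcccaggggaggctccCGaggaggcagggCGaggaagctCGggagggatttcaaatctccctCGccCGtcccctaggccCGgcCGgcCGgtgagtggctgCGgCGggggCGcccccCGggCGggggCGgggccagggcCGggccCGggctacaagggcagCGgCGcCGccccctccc
Tet1 at the RefSeq TSS, chr10:62350073-62350272, minus strand: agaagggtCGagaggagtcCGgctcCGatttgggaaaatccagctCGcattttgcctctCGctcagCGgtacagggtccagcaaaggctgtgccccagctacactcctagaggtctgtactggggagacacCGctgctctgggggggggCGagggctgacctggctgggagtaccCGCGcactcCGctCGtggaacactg
Tet1 at the main GENCODE TSS, chr10:62342763-62342962, minus strand: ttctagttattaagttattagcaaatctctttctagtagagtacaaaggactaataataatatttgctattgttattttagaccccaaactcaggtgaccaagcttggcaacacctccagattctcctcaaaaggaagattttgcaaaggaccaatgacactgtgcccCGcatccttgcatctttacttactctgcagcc
The sequence of Dnmt3b holds 20 CpGs and that of Tdg 17, whereas that of Dnmt1 holds 7. At Tet1 the sequence at the RefSeq TSS holds 12 CpGs and that at the main GENCODE TSS 1. These numbers describe the printed examples only. In the 1000 bases around the main TSS, Dnmt1 has 54 CpGs, the median of all tested TSSs. Mbd3, where Nsl1 also gave the higher ratio, has 102 there, as many as Dnmt3b.

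Across the main TSSs, 3 of the 10 genes had an Msl1 ratio of at least 3 (Uhrf1, Dnmt3b and Tdg) and 3 of the 10 an Nsl1 ratio of at least 3 (Dnmt1, Tdg and Mbd3). The same ratio was reached at 29.2% of the 17443 tested TSSs of protein-coding genes for Msl1 and at 30.2% for Nsl1, so the share among these genes was close to that of all genes. The Nsl1 count was 2 with 1000 bases on each side, where the ratio of Dnmt1 was 2.85 and 14.5% of TSSs reached 3, and 2 per uniquely mapped base, where that of Mbd3 was 2.93. The Msl1 count was 2 with the most upstream TSS of each gene, where the ratio of Uhrf1 was 2.98, and 4 with the RefSeq TSS of Tet1 or with the TSS with most reads. The median ratio of the 10 genes was 2.41 for Msl1, against 2.21 over all tested TSSs, and 1.56 for Nsl1, against 2.03. The interval of the Msl1 ratio lay above 1 for 9 of the 10 genes, all but Dnmt3a, against 66.3% of tested TSSs, and that of the Nsl1 ratio for 4, Dnmt1, Dnmt3b, Tdg and Mbd3, against 63.1%. Under the other TSS, window, read and local level settings tried, this held for 8 or 9 genes for Msl1 and for 4 to 6 for Nsl1. The intervals of both ratios did not overlap at 3 of the 10, with Msl1 higher at Uhrf1 and Dnmt3b and Nsl1 higher at Dnmt1. Over all tested TSSs this was so at 20.6%, with Msl1 higher at 7.51% and Nsl1 higher at 13.1%.

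**Figure D1:**
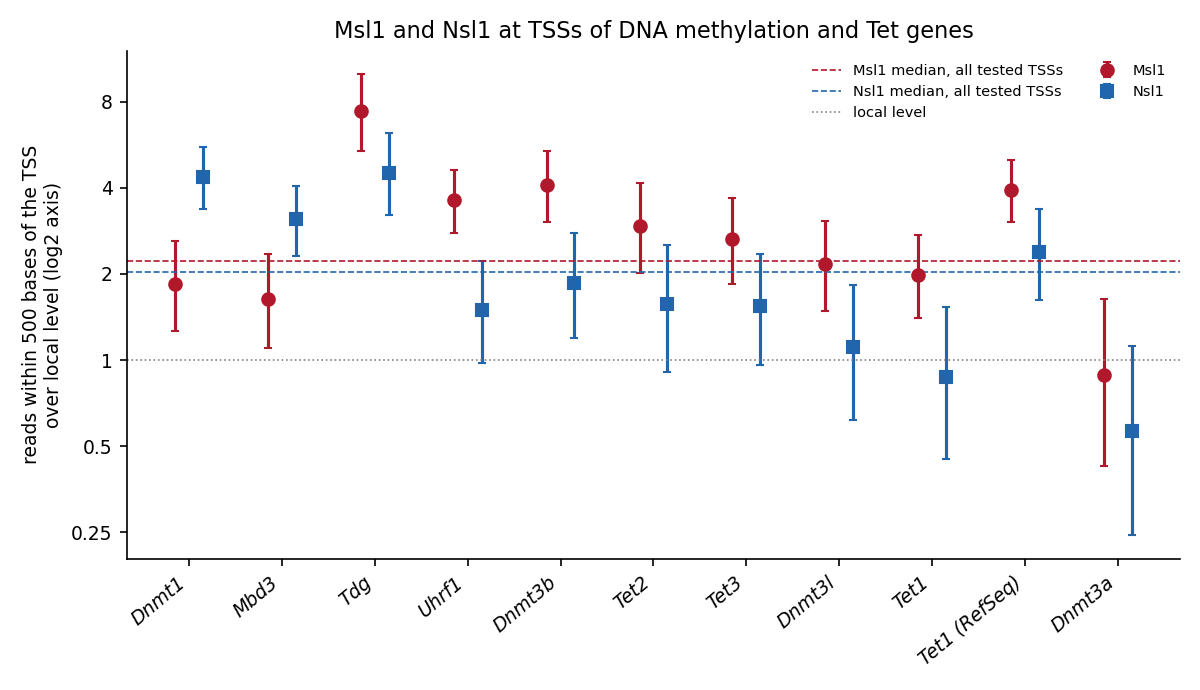
Reads within 500 bases of the TSS over the local level (log2 axis) for Msl1 (circles) and Nsl1 (squares) at the main TSS of each gene and at the RefSeq TSS of Tet1, with exact 95% intervals of counting error, 1 library each. Dashed lines are the medians over 17443 tested TSSs and the dotted line is the local level. Dnmt1 and Mbd3 had the higher Nsl1 ratio, Tdg was high for both, and Dnmt3a was below 1 for both.

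The maintenance genes differed in which library gave the higher ratio. At Dnmt1, which copies methylation after replication (TSS at position 20757317 of chromosome 9, minus strand), 33 Msl1 and 69 Nsl1 reads were counted. The Msl1 ratio was 1.84 (1.26 to 2.60) and the Nsl1 ratio 4.37 (3.38 to 5.57), below and above the respective medians of all TSSs. The Nsl1 reads were concentrated around the start, with 21, 17 and 24 reads in the 250-base bins from −250 to 500, and fell to 8 in the bin after these. The Msl1 reads lay further in, with 15 reads from 250 to 500 and 16 from 500 to 750. RefSeq lists another start of Dnmt1 7015 bases upstream, and an upstream start used in oocytes is known for this gene. There, 12 Msl1 reads (ratio 0.622, 0.321 to 1.09) and 18 Nsl1 reads (1.04, 0.614 to 1.65) were counted, so that no excess over the local level was detectable for either library.

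Uhrf1, which recognises hemimethylated CpGs and recruits Dnmt1, had mainly Msl1 reads. At its main TSS, the second of 4 (position 56443736 of chromosome 17, plus strand), 65 Msl1 reads gave a ratio of 3.61 (2.78 to 4.63) and 26 Nsl1 reads a ratio of 1.5 (0.979 to 2.21). Its first TSS lies 992 bases upstream and had 54 Msl1 reads (2.98, 2.23 to 3.91) and 33 Nsl1 reads (1.91, 1.31 to 2.69). The Msl1 reads thus covered the region of both starts. Between them was a sharp gap: the bin from −250 to 0 of the main TSS held 0 Msl1 reads, next to 22 reads in the bin before and 25 in the bin after it. The positions of the window are unique in mm9 for reads of 50 bases (100%), the length of the Msl1 reads.

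Of the de novo methyltransferase genes, Dnmt3b had the clear excess and Dnmt3a none at its main TSS. Dnmt3b is one of the methyltransferases most expressed in mESCs. At its main TSS (position 153475190 of chromosome 2, plus strand) 52 Msl1 reads gave a ratio of 4.08 (3.03 to 5.39), higher than at 88.6% of tested TSSs, and 24 Nsl1 reads a ratio of 1.86 (1.19 to 2.78). Most of the Msl1 reads lay downstream of the start, with 10 reads from −500 to −250, 1 from −250 to 0, 19 from 0 to 250 and 22 from 250 to 500. The 1-kb window with most Msl1 reads was centred 646 bases downstream and held 67 reads (5.26, 4.05 to 6.73). Such windows, here and below, were picked for their read number in and around the gene. Their ratios are thus drawn upward, and their intervals do not allow for this choice. For Tet3 the Nsl1 window so picked lay 10979 bases from the nearest start and still gave 2.39 (1.64 to 3.35). The other 2 annotated starts of Dnmt3b had Msl1 ratios of 0.579 and 1.31 and Nsl1 ratios of 0.952 and 1.54.

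At Dnmt3a both libraries left a gap over the most CpG-rich of these promoters. The main TSS (position 3807030 of chromosome 12, plus strand) lies in 1000 bases with 158 CpGs and a GC content of 80.9%, and had 10 Msl1 reads (0.890, 0.426 to 1.64) and 8 Nsl1 reads (0.567, 0.244 to 1.12). With fewer than 20 reads over the libraries it is not among the tested TSSs. From −250 to 1000, Msl1 had 5 reads and Nsl1 8. The 1250 bases before held 34 and 32 reads, and the 1250 bases after held 46 and 30. The gap was thus flanked on both sides by reads of both libraries. Among the 593 tested TSSs with at least 120 CpGs in 1000 bases, 5.56% had an Msl1 ratio below 1 and 13.7% an Nsl1 ratio below 1, against 1.43% and 3.48% of TSSs with 60 to 80 CpGs and 33.6% and 21.9% of TSSs with fewer than 20. Tested TSSs have at least 20 reads over the libraries, so TSSs low in both, like this one, are under-counted in these shares. All positions of the window are unique in mm9 at both read lengths. The part of base composition in the gap was not tested, and no input library was analysed here.

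Further into Dnmt3a the picture differed. The gene has 12 annotated TSSs, and mESCs are known to use mainly an internal one that gives a shorter protein, Dnmt3a2. The seventh TSS, 84698 bases downstream of the main one, is the one inside the gene that also has a RefSeq start, and had 16 Msl1 reads (1.33, 0.759 to 2.18) and 26 Nsl1 reads (1.91, 1.24 to 2.81). The tenth, 90390 bases downstream, had the most Msl1 reads of the 12, 37 (3.09, 2.17 to 4.29), with 17 Nsl1 reads (1.22, 0.710 to 1.96). Over the 12 starts, the Msl1 ratio ran from 0.656 to 3.09 and its interval lay above 1 at 4, and the Nsl1 ratio ran from 0.567 to 1.91 with its interval above 1 at 2. Over the tested main TSSs of all genes the interval lay above 1 at 66.3% for Msl1 and 63.1% for Nsl1. For starts other than the main ones this share was not computed, so these counts have no like background.

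Dnmt3l, the cofactor that stimulates Dnmt3a and Dnmt3b, had only moderate ratios at its 3 starts, all of which are also RefSeq starts. At the main one (position 77518080 of chromosome 10, plus strand) 33 Msl1 reads gave 2.17 (1.49 to 3.06) and 15 Nsl1 reads 1.11 (0.618 to 1.83). At the second TSS, 5493 bases upstream, the order was the other way round, with 21 Msl1 reads (1.33, 0.819 to 2.04) and 31 Nsl1 reads (2.34, 1.58 to 3.34). The intervals of both libraries overlapped at each of these starts. The 1-kb windows with most reads in and around the gene both lay at the second TSS, the Nsl1 one centred 95 bases upstream (31 reads, 2.29) and the Msl1 one 655 bases downstream (43 reads, 2.82, 2.03 to 3.83). The first TSS lies 570 bases from a TSS of Aire on the opposite strand and had 22 Msl1 and 14 Nsl1 reads (1.33 and 1.10).

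Among the Tet genes, whose products oxidise 5-methylcytosine, Msl1 gave the higher ratio at each main TSS. Tet2, at position 133207354 of chromosome 3 on the minus strand, had 33 Msl1 reads (2.95, 2.02 to 4.17) and 17 Nsl1 reads (1.57, 0.912 to 2.53). Tet3, at position 83391669 of chromosome 6 on the minus strand, had 36 Msl1 reads (2.65, 1.85 to 3.69) and 22 Nsl1 reads (1.54, 0.964 to 2.35). For both genes the intervals of the libraries overlapped. In Tet2 the bin from −250 to 0 held 0 reads of either library.

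Tet1, together with Tet2 the main Tet gene of mESCs, depended on which start was taken. At the main GENCODE TSS (position 62342762 of chromosome 10, minus strand) 38 Msl1 reads gave 1.98 (1.40 to 2.74) and 12 Nsl1 reads 0.874 (0.451 to 1.53). The RefSeq promoter matched the genome 7310 bases upstream, inside an intron of the GENCODE transcript that starts most upstream. There 68 Msl1 reads gave 3.93 (3.04 to 5.02) and 32 Nsl1 reads 2.38 (1.62 to 3.38), about as high as at Dnmt3b. The 1-kb windows with most reads of each library in and around the whole gene lay at this RefSeq start (82 Msl1 reads, 4.28, 3.39 to 5.35, and 38 Nsl1 reads, 2.77, 1.95 to 3.82). Msl1 had 9 reads from −250 to 0 and 28 from 0 to 250, and Nsl1 had 13 and 7 in the same bins. The most upstream GENCODE start of Tet1 had 14 Msl1 and 8 Nsl1 reads, with ratios of 0.757 and 0.584. At TSS 3 of Tet1 Nsl1 gave the higher ratio, with 28 Nsl1 reads (2.17, 1.43 to 3.15) and 27 Msl1 reads (1.33, 0.874 to 1.94). The sequences given above show the same contrast in CpG number at the RefSeq and the main GENCODE start.

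Tdg, which excises the oxidised bases, had the highest ratio of both libraries, although for Nsl1 its interval overlapped that of Dnmt1. At its main TSS (position 82092573 of chromosome 10, plus strand) 47 Msl1 reads gave 7.42 (5.39 to 10), higher than at 99.5% of tested TSSs, and 40 Nsl1 reads gave 4.52 (3.21 to 6.21). Both intervals overlapped. Its read numbers were not the highest: the local level of Tdg was low, 6.33 Msl1 and 8.84 Nsl1 reads per kb, while the other 9 genes had 11.2 to 19.1 and 10.8 to 17.3. Reads of 50 bases are unique at 87.9% of the positions of its local level and at 86.7% of those at the TSS. The Msl1 reads were one-sided, with 4 reads from 2000 to 500 bases upstream and 48 from 500 to 2000 downstream, while Nsl1 had 27 on each side. At the second TSS, 839 bases downstream, Msl1 had 50 reads (7.87, 5.77 to 10.5) and Nsl1 21 (2.36, 1.45 to 3.63). Nsl1 was thus highest upstream and at the first start, with 16 reads from −250 to 0, and Msl1 from 250 to 500, with 19.

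Mbd3, the NuRD subunit, was with Dnmt1 one of the 2 genes with more Nsl1 than Msl1 reads per read of the library at the main TSS. At its main TSS (position 79862295 of chromosome 10, minus strand) 30 Msl1 reads gave 1.64 (1.10 to 2.35) and 53 Nsl1 reads 3.10 (2.31 to 4.07). The Nsl1 reads formed flanks on each side of the start, with 27 reads from −500 to −250 and 29 from 500 to 750, and only 7 and 6 in the bins from 0 to 500. At its second TSS the ratios were 1.25 and 1.48.

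**Figure D2:**
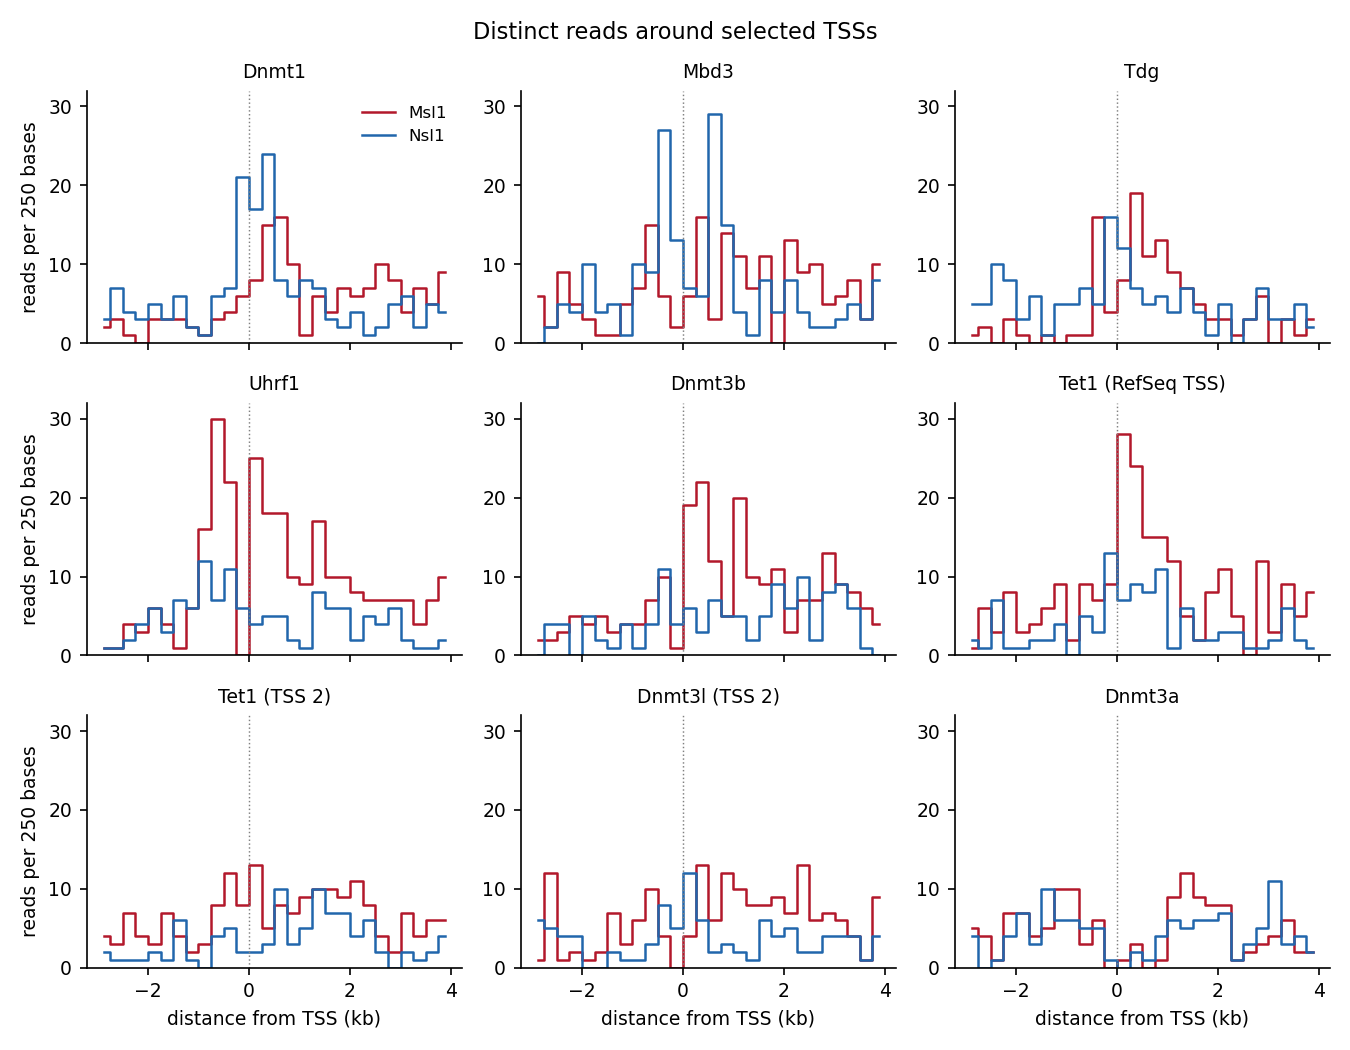
Distinct reads per 250-base bin against distance from the TSS in kb, in the direction of the gene, for Msl1 and Nsl1 at 9 selected TSSs (1 library each). Nsl1 rose at the start of Dnmt1, Msl1 was highest in the first 500 bases of Dnmt3b and of Tet1 from its RefSeq start, and both libraries were low from −250 to 1000 at Dnmt3a.

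Over the 28 other annotated starts of these genes the median ratio was 1.28 for Msl1 (range 0.579 to 7.87) and 1.14 for Nsl1 (range 0.536 to 2.36). A ratio of at least 3 was found at 2 of them for Msl1, the second of Tdg and the tenth of Dnmt3a, and at 0 for Nsl1. Of the 28, 25 had enough reads to be tested, and over the 15841 tested starts of all genes other than the main ones 7.41% reached it for Msl1 and 2.76% for Nsl1. The RefSeq start of Tet1, with an Msl1 ratio of 3.93, is not among these GENCODE starts. Of all 38 starts, 34 reached 20 reads when the libraries were added.

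The place of the reads around the start differed between the libraries. Summed over the 10 main TSSs, Msl1 had 105 reads from −500 to −250, 28 from −250 to 0 and 106 from 0 to 250, a dip just upstream of the start. Nsl1 had 84, 75 and 65 reads in the same bins, and 21 of the 75 lay at Dnmt1. Over all tested TSSs Msl1 dipped there too, with 94868, 72562 and 135161 reads. In the middle bin 4 genes had 0 or 1 Msl1 read (Uhrf1, Dnmt3a, Dnmt3b and Tet2), and 2 genes had 0 or 1 Nsl1 read. The share of all tested TSSs with so few reads there was not computed. Relative to the level from 5000 to 2000 bases upstream, the dip reached 0.762 for these genes and 1.48 over all tested TSSs for Msl1, while Nsl1 stood at 2.37 and 3.29 in this bin. Between 500 and 2000 bases from the start, Msl1 had 297 reads upstream and 485 downstream, 1.63 times as many (1.41 to 1.89), and Nsl1 258 and 326, 1.26 times as many (1.07 to 1.49). More Msl1 reads downstream than upstream were found in 8 of the 10 genes, against 70.9% of tested TSSs, and more Nsl1 reads in 6, against 52.9%, so the shares were close to those of all genes.

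The density of reads between 500 and 2000 bases downstream, divided by that within 500 bases of the start, had a median of 0.854 for Msl1 over the 10 genes, against 0.788 over all tested TSSs. For Nsl1 this median was 0.862, against 0.578. Only 4 of the 10 genes had an Nsl1 ratio at the TSS with its interval above 1. For the others the value compares windows without a detectable excess at the start. The highest, 2.33 at both Dnmt3a and Tet1, rest on 8 and 12 Nsl1 reads within 500 bases. Dnmt1 was the most concentrated for Nsl1, at 0.329 (0.211 to 0.502), and for Tdg the value was 0.450 (0.266 to 0.752). At Mbd3 it was 0.767 (0.522 to 1.13).

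The balance of the libraries was compared as the number of Msl1 over Nsl1 reads within 2 kb of the TSS, each per distinct read of its library. It was not divided by the local level, so it also holds the balance of the region. It had a median of 1.99 over the 10 genes, against 1.28 over 14492 tested TSSs with at least 100 reads. It was above 1 at 8 of the 10 genes, close to the 73.2% of those TSSs, and its interval lay above 1 at 7, against 43%. At 4 genes it exceeded the 90th percentile of those TSSs, 2.13: Uhrf1 (2.72, 2.12 to 3.50), Dnmt3b (2.52, 1.89 to 3.38), Dnmt3l (2.34, 1.66 to 3.33) and Tet1 (2.22, 1.63 to 3.03). The RefSeq start of Tet1 gave 2.66 (2.01 to 3.54). Tet3 (2.07), Tet2 (1.91), Dnmt3a (1.54) and Tdg (1.35) followed, with overlapping intervals between neighbours. Dnmt1 (0.933, 0.705 to 1.23) and Mbd3 (0.902, 0.698 to 1.16) were below 1, with intervals that include it.

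Over these TSSs the balance rose with CpG number, from a median of 1.02 below 20 CpGs in 1000 bases to 1.92 at 120 or more, so each gene was also set beside those of the 14492 TSSs with a like number. Within that class, 6 of the 10 genes lay above the median. Of these, 4 lay above the 90th percentile: Uhrf1 (78 CpGs), Dnmt3l (13), Tet1 (32) and Tet3 (55). Tet2, Tdg and Dnmt3a lay above 62.1%, 34.1% and 23.8% of their classes. Dnmt3l stood highest, above 99.2% of the 1612 TSSs with fewer than 20 CpGs. The Msl1 ratio, which is taken over the local level, had a median of 2.21 over all tested TSSs. It was above this at Uhrf1 (3.61) and Tet3 (2.65) and below it at Dnmt3l (2.17) and Tet1 (1.98). Beside the TSSs of their own CpG class, the Msl1 ratio was above most at each of these genes. It was higher than at 93% of the class for Dnmt3l, 73% for Uhrf1, 65.3% for Tet1 and 61.2% for Tet3. At Tet1 the local level itself was 19.1 Msl1 and 13.7 Nsl1 reads per kb. Dnmt3b, with 102 CpGs, lay above 87.3% of its class. Mbd3, also with 102, was the 1 gene below the 10th percentile of its class, above only 2.43% of it, whereas Dnmt1, with 54, lay above 28.8%. Dnmt3b and Mbd3 thus had the same CpG number at their main TSSs, and the intervals of their balance did not overlap. At the second TSS of Mbd3 the balance went the other way, at 2.12 (1.56 to 2.89).

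**Figure D3:**
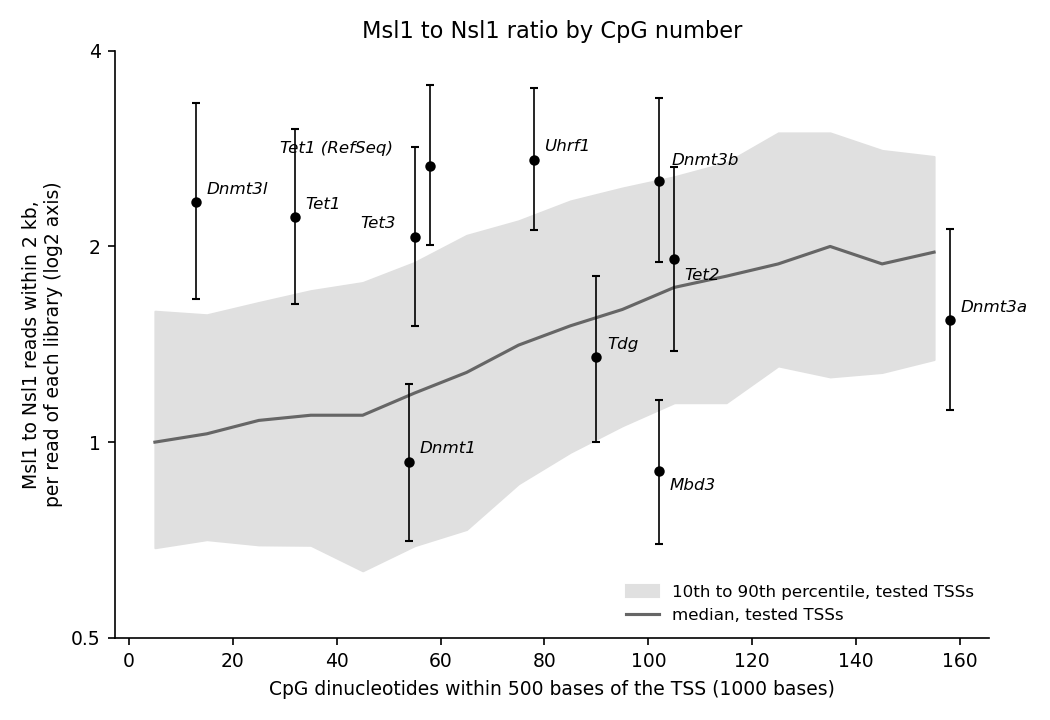
Msl1 to Nsl1 reads within 2 kb of the TSS, per distinct read of each library (log2 axis), against the number of CpGs in the 1000 bases around it, for the main TSS of each gene and the RefSeq TSS of Tet1, with exact 95% intervals of counting error. The line and the grey band are the median and the 10th to 90th percentile of tested TSSs in steps of 10 CpGs. Dnmt3l, Tet1 at both starts, Tet3 and Uhrf1 lie above the band and Mbd3 below it.

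Short motifs were looked for on both strands in the 300 bases from 250 upstream to 50 downstream of each main TSS, as a description of the sequences. GGGCGGG, a box of Sp and Klf factors, was found in 6 of the 10 genes (Uhrf1, Dnmt3a, Dnmt3b, Tet1, Tet3 and Mbd3) and in 40.5% of all tested promoters. CCAAT was found in 6 and in 37.1%. The core CATGCGC of Nrf1 sites was found in Dnmt1 alone (5.69% of tested promoters), and Tdg alone held TGACGTCA, the element of cAMP-responsive factors (2.79%), and CACGTG, the E box (8.96%). TATAAA was found in Mbd3 alone (9.24%). The ETS core CCGGAAG (13.4%) and AAGATGG, the core of Yy1 (6.61%), were found in 0 of the 10. These counts depend on the start taken. The RefSeq start of Tet1 held none of the motifs, and the second TSS of Dnmt3l held GGGCGGG and CACGTG. In the printed sequence of Tdg, the CpG of the cAMP-responsive element and that of the E box are among those in capitals.

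Along most of the genes Msl1 exceeded the local level, whereas an excess of Nsl1 was not detectable. The level from 2 kb past the first TSS to the end of the gene, over the local level of the main TSS, ran from 1.08 to 1.55 for Msl1 and was above the median of all genes, 1.06, in 10 of 10, above their upper quartile, 1.22, in 6, and had its interval above 1 in 8, against 35.2% of all genes. For Nsl1 it ran from 0.869 to 1.05, was above the median of all genes, 0.995, in 5, and had its interval above 1 in 0, against 14.1%. All genes here are the 14230 for which this level was computed. Whether an interval leaves out 1 depends on the number of reads and so on gene length, which was not matched. The highest Msl1 levels were those of Mbd3 (1.55, 1.29 to 1.84), Tdg (1.46, 1.23 to 1.74) and Dnmt3l (1.44, 1.29 to 1.61), and the lowest those of Tet3 (1.08, 0.992 to 1.17), Dnmt1 (1.09) and Tet1 (1.11). The ranking was not matched for gene length either. The highest genes span 7012, 20972 and 21676 bases and the lowest 79306, 45668 and 94549. Against this order, Uhrf1 (20166 bases) had 1.25 and Tet2 (80712 bases) 1.33. Later starts were not left out, and the stretch of Dnmt3l holds its second and main TSSs. Part of each of the 10 genes lies within the local level itself, so that these levels are drawn towards 1. The excess was not even along the genes. When each gene was divided into 10 parts of the same length, the first part of Uhrf1 held 140 Msl1 reads, 3.86 times the local level, and the second 76, 2.09 times. In Dnmt3a the eighth and ninth parts, which hold TSSs 7 and 10, were the highest for Msl1, at 1.77 and 1.85 (Nsl1 1.22 and 1.03), and in Dnmt3l the fifth part, just downstream of the second TSS, at 2.33. For Tet1 the second part, with the RefSeq start, was the highest for Msl1, at 1.63, whereas all 10 parts of Tet1 lay between 0.879 and 1.06 for Nsl1. The last part of Tdg held 0 Nsl1 reads in 2098 bases, where a count of 0 allows up to 3 reads as a one-sided limit, and 15 Msl1 reads. Whether reads of 36 bases, the length of the Nsl1 reads, are unique in this part was not computed. Over the local level of Tdg they are unique at 81.5% of positions. The count of 0 therefore cannot be read as an absence of Nsl1.

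**Figure D4:**
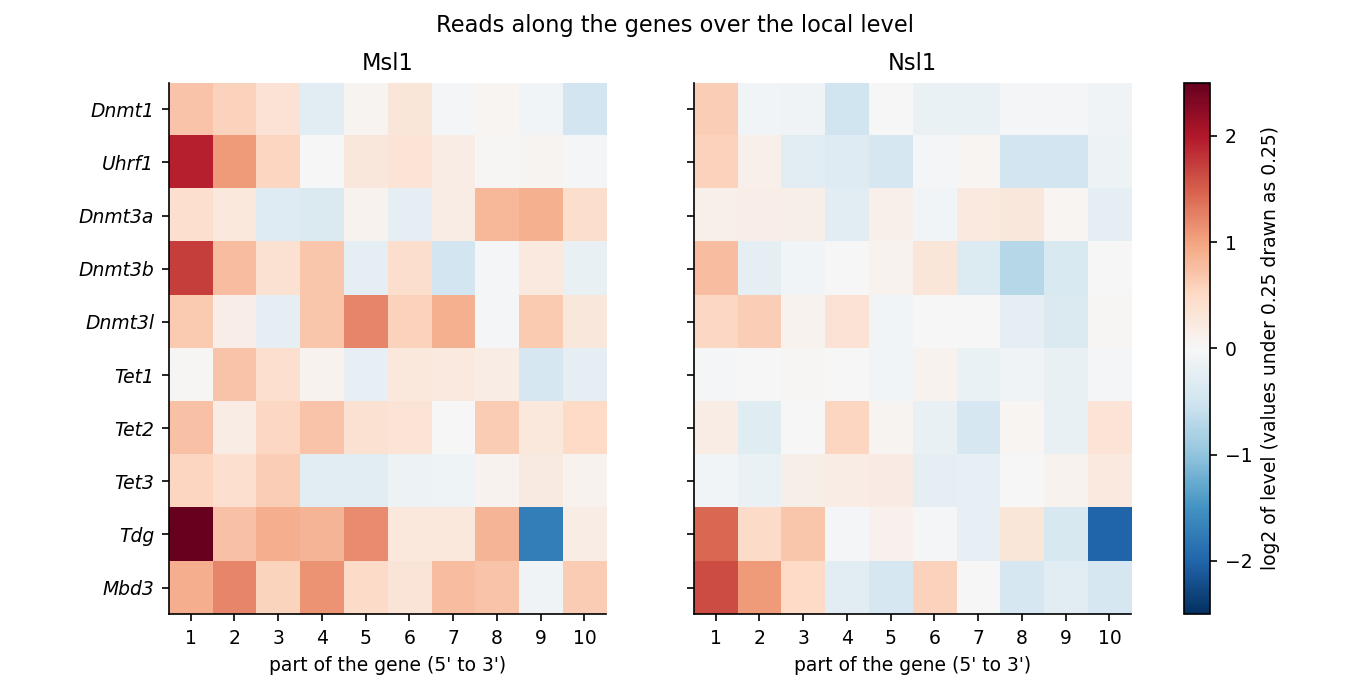
Level of Msl1 and Nsl1 along each gene, cut into 10 parts of the same length from 5′ to 3′, as log2 of the reads per base over the local level of the main TSS (colour; values under 0.25 drawn as 0.25). The first parts of Tdg, Uhrf1 and Dnmt3b are the highest for Msl1, and parts 8 and 9 of Dnmt3a (1.77 and 1.85) and part 5 of Dnmt3l (2.33) are the highest of these genes for Msl1.

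The wider pathway was taken from a list of 59 other genes of DNA methylation, chosen by function. An Msl1 ratio of at least 3 was found at 23 of the 59 and an Nsl1 ratio of at least 3 at 17, against the 29.2% and 30.2% of all tested TSSs given above. Among 8 methyl-CpG readers, 4 reached it for Msl1 and 6 for Nsl1. Among 14 genes of maintenance and targeting it was 4 and 2, among 13 genes of base excision and deamination 6 and 4, among 10 NuRD subunits 4 and 2, among 7 Tet partners 3 and 2, and among 7 genes of the S-adenosylmethionine cycle, which supplies the methyl group, 2 and 1. The highest Msl1 ratios were those of Uhrf2, a paralogue of Uhrf1 (65 reads, 6.68, 5.11 to 8.60), Mat2a, which makes S-adenosylmethionine (71 reads, 6.55, 5.07 to 8.34), and Ogt, the glycosyltransferase that binds Tet proteins (39 reads, 5.36, 3.78 to 7.41). High Nsl1 ratios were those of Mbd1, a methyl-CpG binding protein (65 reads, 6.51, 4.98 to 8.38), and Vprbp, a substrate adaptor of a ubiquitin ligase (65 reads, 5.61, 4.30 to 7.21). The median balance of Msl1 to Nsl1 was 1.79 over the 59 genes and 2.35 over those of maintenance and targeting, and 1.28 over the methyl-CpG readers, against 1.28 over all TSSs.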

How the data were processed

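ChIP-seq reads of Msl1 and Nsl1 from wild type mESCs were analysed. Per the submitters' processing notes and the methods, base calling used CASAVA 1.8.2, reads were aligned to mm9 with Bowtie 0.12.7, and unique reads were used. The files the authors deposited list each alignment by chromosome, start, end and strand, with a score of 255 throughout that was not used. Msl1 had 23888517 reads of 50 bases and Nsl1 26084098 of 36 bases. Of the nuclear reads, 18.3% and 4.56% repeated a position and strand, and 1 was kept. Mitochondrial reads were left out.

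Reads were moved to the fragment middle given by the strand cross-correlation (106 and 66 bases) and counted with numpy 2.4.6 and scipy 1.17.1 under Python 3.11.15. TSSs were taken from GENCODE on mm9, and starts within 500 bases were joined. On a tie the most upstream was the main TSS. A TSS was tested where the libraries added up to 20 reads or more. The 17 RefSeq promoters of the 10 genes (GRCm38.p6 table) were matched to mm9 by sequence, each once. Those of Dnmt1 and Tet1 lay over 500 bases from a GENCODE TSS. Intervals are exact conditional binomial intervals. The counting was tested on simulated data. With 1 library per antibody no test was run.

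The genes, the list of 59 and its parts, and the TSS alternatives were chosen with earlier results of these data known. All 10 genes were named, and of the 59 those with the 3 highest ratios of each library, of which 1 is not reported here. Peaks were not called.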

Additional observations from a re-analysis of the deposited data

How the results depend on the processing

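Under 11 alternative settings 243 values were recomputed. Values were held to the counting interval and counts of genes to 1.5 times the main count. Medians were held to the relative width of the interval of the summed ratio. Of the 243, 219 stayed within these limits and 19 moved outside them. Some of the 219 could not change, such as the ratios of the other genes under the RefSeq TSS of Tet1. The tally is therefore no measure of stability. The remaining 5 moved to the other side of 1 with an interval that leaves out 1 before or after. These 5 concern Tet1 and Dnmt3a and the choice of TSS. With the most upstream TSS, the Msl1 ratio of Tet1 was 0.757 and that of Dnmt3a 1.69. With the TSS with most reads, the Msl1 ratio of Dnmt3a was 3.09 and the Nsl1 ratio of Tet1 2.17, and at the RefSeq TSS the Nsl1 ratio of Tet1 was 2.38. At the TSS with most reads Nsl1 gave the higher ratio at Dnmt3l (2.34 against 1.33) and at Tet1 (2.17 against 1.33). Summed over the 10 genes, the Msl1 ratio was 2.62 (2.36 to 2.91), the Nsl1 ratio 2.07 and the Msl1 to Nsl1 balance 1.70. With the most upstream TSS of each gene the Msl1 ratio was 2.35 and the balance 1.55. With the TSS with most reads, chosen after seeing the data, the Nsl1 ratio was 2.39, the Nsl1 reads downstream over those at the TSS were 0.583 against 0.760, and the Msl1 level along the genes was 1.15 against 1.19. With a local level that leaves out annotated TSSs, the level along the genes was 1.22 for Msl1 and 1.02 for Nsl1, against 0.991. With a ratio of at least 2, 6 genes counted for Msl1, where 56.3% of tested TSSs did, and 3 for Nsl1, where 50.8% did. The cause of these shifts was not tested. The values per uniquely mapped base were also added after seeing the data. No paired analysis was possible because there is 1 library per antibody. Without replicates or an input library, the spread between libraries of the same antibody is unknown, and windows with few reads have wide intervals.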
